A study of Mus musculus with 2 samples.

Results

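*Fos*, *Fosb*, *Fosl2*, *Jun*, *Junb*, *Jund*, *Atf3*, *Egr1*, *Ier3* and *Zfp36*, a set of immediate early genes listed by symbol, were followed in the single cells of injured mouse quadriceps. They are 10 of the 32285 genes listed in the count matrices. Male wild-type C57BL/6J mice, 14 weeks old, received an intramuscular injection of BaCl2, a toxin that kills myofibers and sets off regeneration, and the mononuclear cells were collected on day 1 or day 3 post-injury. Each time point had 1 library made from 5 pooled mice. Both groups carried the same genotype and the same injury, and no library of uninjured muscle was analysed here. With 1 library per day there were no replicates, no test was possible and no p-value is given.

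Immediate early genes are transcribed within minutes of a stimulus, without prior protein synthesis, and most of their mRNAs decay just as fast. Fos and Jun proteins pair through leucine zippers into the AP-1 transcription factor, Atf3 joins such pairs, Egr1 is a zinc finger factor induced by the same kinases, Ier3 is a stress and NF-kB target, and Zfp36 (tristetraprolin) removes AU-rich mRNAs such as those of cytokines. In muscle they respond to injury and to growth factors. The enzymatic digestion needed to free cells from muscle is itself a known inducer of the same genes. Per the methods of the study, the cells of both libraries were digested with collagenase and dispase at 37 °C, sorted on light scatter, frozen and thawed, so what the cells expressed in the tissue and what handling induced cannot be told apart here.

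The promoters of the genes are shown first, since the set is defined by its rapid transcription. Windows from 250 bases before to 50 bases after the gene start, from RefSeq annotation of GRCm38.p6, were searched on both strands for 9 of the 10 genes. *Egr1* was left out of this search, so none of the counts for the set below covers its promoter. The cAMP response element (CRE) TGACGTCA was found in 0 of these 9 windows and in 1.79% of 32851 windows of all genes. Its half-site TGACG, which overlaps the full element, was found in 4 (*Atf3*, *Fos*, *Fosb* and *Junb*) and in 20.8% of all windows. The AP-1 site TGANTCA was found in 0 against 7.81%, and the variant TGACATCA in *Jun* alone against 3.62%. A kappa B site was found in 4 (*Fos*, *Fosb*, *Fosl2* and *Ier3*) against 4.51%, a CArG box, the site of serum response factor, in *Zfp36* alone against 1.63%, the Egr site GCGTGGGCG in 0 against 0.612%, and the TATA box TATAAA in *Fos* and *Junb* against 13.6%. A match describes letters and not a bound site. Below are the 150 bases before the start of 5 genes, 5′ to 3′ on the strand of the gene. *Fos* and *Junb* were chosen as half-site genes with opposite differences between the days in macrophages, *Atf3* as a further half-site gene, *Jun* for its AP-1-like site and *Ier3* as the gene with the largest difference between the days over all cells. Capitals mark the half-site in either orientation (*Fos* at −129 and −66, *Atf3* at −7, *Junb* at −106), the AP-1-like site (*Jun* at −45) and the kappa B site (*Ier3* at −92), counted in bases from the gene start.
Fos (chr12:85473740-85473889, + strand): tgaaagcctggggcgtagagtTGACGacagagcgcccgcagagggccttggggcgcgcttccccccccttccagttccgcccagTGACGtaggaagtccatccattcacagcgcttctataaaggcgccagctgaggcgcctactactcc
Junb (chr8:84978749-84978898, − strand): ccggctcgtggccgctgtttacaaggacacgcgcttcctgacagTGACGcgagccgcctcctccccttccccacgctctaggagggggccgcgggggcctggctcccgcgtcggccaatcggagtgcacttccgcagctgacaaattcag
Atf3 (chr1:191183334-191183483, − strand): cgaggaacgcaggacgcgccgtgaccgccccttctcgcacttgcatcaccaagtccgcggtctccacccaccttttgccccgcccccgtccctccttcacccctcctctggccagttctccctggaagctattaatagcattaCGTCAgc
Jun (chr4:95052223-95052372, − strand): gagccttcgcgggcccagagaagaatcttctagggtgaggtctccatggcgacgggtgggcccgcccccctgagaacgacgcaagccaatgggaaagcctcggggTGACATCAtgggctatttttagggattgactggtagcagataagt
Ier3 (chr17:35821563-35821712, + strand): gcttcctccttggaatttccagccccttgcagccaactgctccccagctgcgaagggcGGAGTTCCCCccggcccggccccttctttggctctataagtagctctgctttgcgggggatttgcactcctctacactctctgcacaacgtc

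Cells were the 7367 barcodes with the most UMIs (unique molecular identifiers, each standing for 1 captured mRNA) on day 1 and the 6640 on day 3, of which 6735 and 4627 had at least 1000 UMIs, at least 200 genes and at most 7.5% mitochondrial UMIs. The matrices summed to 74852240 UMIs on day 1 and 102565783 on day 3, and the kept cells had a median of 9389 and 14548 UMIs. No barcode was kept in both libraries. The labels name the same kit chemistry for both libraries, but the lists of possible barcodes held 737280 entries on day 1 and 6794880 on day 3. The methods of the study name different versions of the chip kit as alternatives, without saying which library had which. Why the lists differ was not tested. Any difference between the libraries, also one of kit version, cannot be told apart from the day. The mitochondrial limit took 517 barcodes (7.02%) on day 1 and 2013 (30.3%) on day 3, and the median mitochondrial share of the kept cells was 2.12% and 4.04%. Levels are in CPM (counts per 1000000 UMIs), from the summed UMIs of all cells in a group. Square brackets hold the bounds of 95% confidence intervals, exact Poisson for CPM, Clopper-Pearson for shares and exact binomial for ratios of counts. These intervals cover counting error only, since cells of 1 library are not replicates.

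Cell types were named from marker genes, after clustering without the 10 genes. Monocyte/macrophage-like cells numbered 3274 on day 1 and 2497 on day 3, neutrophil-like cells 2025 and 238, fibroblast/FAP-like cells (FAPs are fibro-adipogenic progenitors) 656 and 843, dendritic cell-like cells 416 and 451, endothelial-like cells 95 and 61 and satellite cell/myoblast-like cells 6 and 199. All 10 neutrophil markers were raised in both clusters of neutrophils, all 10 FAP markers in both clusters of FAPs, all 8 endothelial markers in endothelial-like cells and 7 to 12 of the 12 markers in each cluster of macrophages, although the *Ccl24*-, *Dmkn*- and *Rsad2*-led clusters had 0 of them among their 10 leading genes. The dendritic name was weaker, with 3 of 11 markers raised and also 0 among the 10 leading genes, which were led by the MHC class II genes *H2-Eb1*, *H2-Aa* and *H2-Ab1*. Under 5 alternatives that clustered both libraries together (20 PCs, resolution 0.4, listed genes kept, a mitochondrial limit of 15% and the genes per 1000 UMIs reading) the cluster led by these genes was instead named monocyte/macrophage-like, with 11 or 12 of 12 markers raised, as it was on day 1 with each library clustered on its own, so these gave no dendritic value. With resolution 1.2, log-normalized values or the stricter barcode limit, a smaller cluster of 57 to 125 cells on day 1 and 176 to 235 on day 3, with 7 of 11 markers raised, carried the dendritic name. In the endothelial-like cluster the erythroid markers came second. Their mean log2 ratio to clusters of other types was 3.89, against 5.41 for the endothelial markers. Whether erythroid cells or RNA added to its levels was not tested. A cluster led by *Ifitm6* and *Plac8*, with 263 and 338 cells, stayed unnamed. Macrophages of the 2 days fell in different clusters. Those of day 1 were mostly in *Pf4*-, *Ccl24*- and *Dmkn*-led clusters of 1111, 1034 and 990 cells, and those of day 3 mostly in *Fcrls*-, *Gpnmb*- and *Rsad2*-led clusters of 1317, 718 and 419 cells. FAP-like cells came mainly from a *Cxcl5*-led cluster on day 1 (639 cells) and an *Sfrp2*-led cluster on day 3 (831 cells). Where nearly all cells of a cluster came from 1 library, type and library could not be separated.

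Over all cells the 10 genes split by day. *Fosb* held 138 CPM [135, 140.3] on day 1 and 412 CPM [407, 416] on day 3, *Egr1* 129 CPM [126, 131] and 384 CPM [379, 388], and *Atf3* 168 CPM [165, 171] and 364 CPM [360.2, 368]. *Ier3* held 2686 CPM [2674, 2698] and 509 CPM [504, 514], *Junb* 1904 CPM [1894, 1914] and 813 CPM [807, 819.6], and *Fosl2* 218 CPM [215, 222] and 108 CPM [106, 110.2]. The first 3 stood higher on day 3 and the latter 3 lower. *Fos* (560.5 and 863 CPM) and *Jun* (452 and 786 CPM) were higher by less, and *Jund* (773 and 598 CPM) and *Zfp36* (672 and 372 CPM) lower by less. Over all cells a change in the mixture of types and a change within cells cannot be told apart, so each type is given below. *Fosb*, *Egr1* and *Atf3* were at least 2-fold higher on day 3, *Ier3*, *Junb* and *Fosl2* at least 2-fold lower, and *Fos*, *Jun*, *Jund* and *Zfp36* lay between. Thus 3 genes were lower and 3 higher, where 4.70% and 20.9% of the 10388 genes with at least 500 UMIs were lower and higher by that fold. Over the alternatives the lower count ran from 2 to 4 and the higher from 2 to 3. *Fosl2* lay at the 2-fold line and reached -0.90 at its nearest to 0, *Atf3* 0.75 with the median gene set to 0 and *Egr1* 0.52 with the mean CPM of each cell. The median log2 ratio of day 3 over day 1 was 0.13 over the 10 genes and 0.36 over all genes. Single genes ran from -2.40 for *Ier3* to 1.58 for *Fosb*. Because the median gene was itself above 0, a ratio should be read against that shift, which was 0.35 in monocyte/macrophage-like, 0.14 in fibroblast/FAP-like, 0.07 in dendritic cell-like, -0.11 in endothelial-like and -0.26 in neutrophil-like cells.

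**Figure D1:**
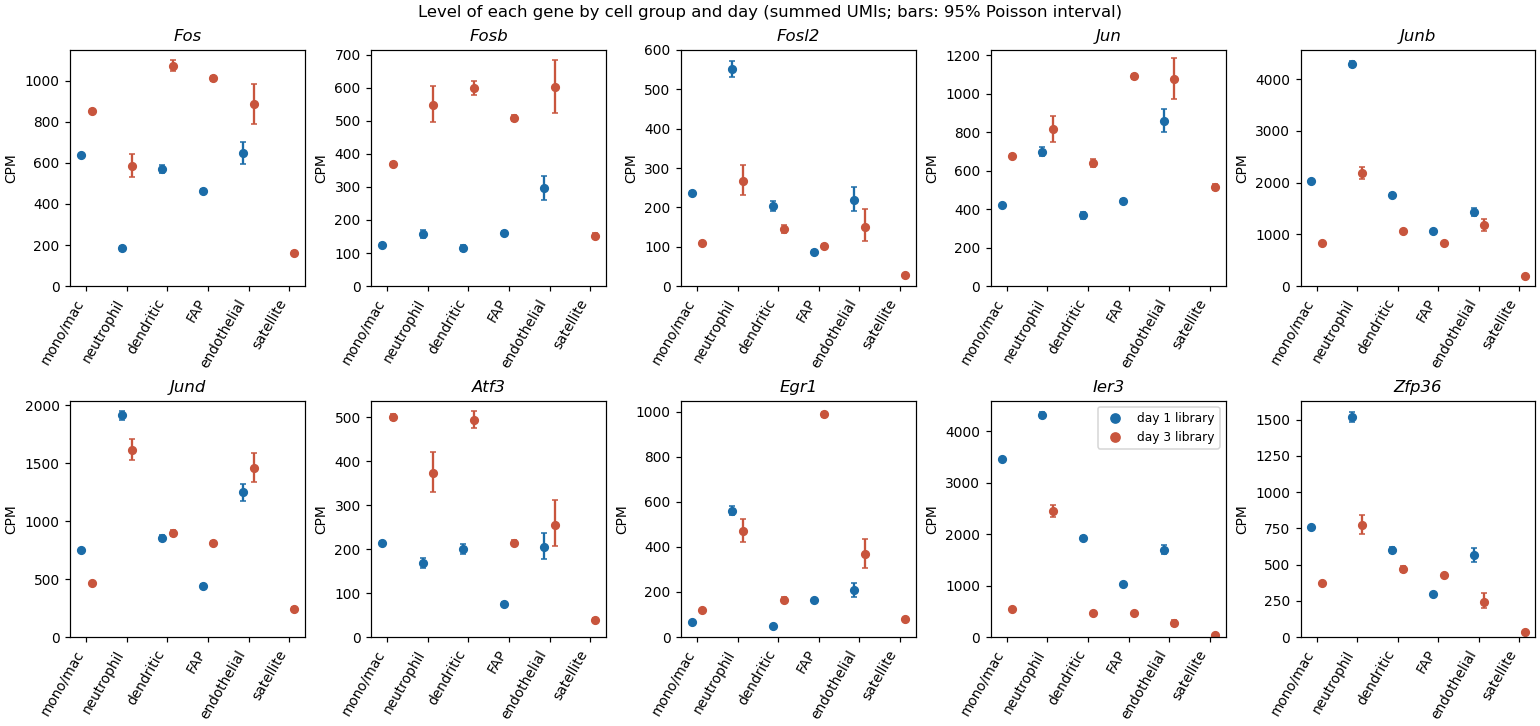
Level of each gene in CPM (vertical axis, its own scale per panel, starting at 0) in the day 1 (blue) and day 3 (red) libraries, for 6 cell groups; points are CPM of summed UMIs and bars 95% Poisson intervals. *Ier3* and *Junb* sat lower on day 3 in each group with at least 50 cells on both days, *Fosb* sat higher in each of those, and *Egr1* stood at 988 CPM in fibroblast/FAP-like cells of day 3.

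*Fos* (ENSMUSG00000021250, chr12:85473890-85477274 in GRCm38.p6, as for all positions given here) encodes the founding AP-1 subunit, which cannot pair with itself and needs a Jun partner. In monocyte/macrophage-like cells it stood at 637 CPM [629, 645] on day 1 and 854 CPM [845, 863] on day 3. In fibroblast/FAP-like cells it went from 462 CPM [453, 472] to 1012 CPM [999, 1024], a larger difference of 2.19-fold against 1.34-fold in macrophages. Neutrophil-like cells had the lowest *Fos* of the types with at least 50 cells on day 1, at 184 CPM [172, 196], and 586 CPM [532, 644] on day 3. Dendritic cell-like cells held 569 and 1073 CPM and endothelial-like cells 645 and 884 CPM. *Fos* was thus higher on day 3 in each of these 5 types. Its log2 ratio in macrophages of 0.42 [0.40, 0.45] was close to the shift of the median gene and came to 0.08 once that shift was taken off. On day 1 the endothelial-like and macrophage intervals overlapped at the top of the order, and on day 3 dendritic cell-like cells came first, followed by fibroblast/FAP-like cells.

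*Fosb* (ENSMUSG00000003545, chr7:19302696-19310118), a close relative of *Fos* that is induced with it, was higher on day 3 in each type with at least 50 cells on both days. In monocyte/macrophage-like cells it was 2.95-fold higher (125 CPM [122, 129] against 369 CPM [364, 375]). The corresponding levels were 159.7 and 509 CPM in fibroblast/FAP-like cells, 157 and 549 CPM in neutrophil-like cells and 114 and 599.8 CPM in dendritic cell-like cells, where the fold reached 5.24-fold. Endothelial-like cells had the highest level on day 1, 296 CPM, and 601 CPM on day 3. *Fosb* passed 2-fold in each of the 5 types, and on day 3 the endothelial-like, dendritic cell-like and neutrophil-like intervals overlapped.

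*Fosl2* (ENSMUSG00000029135, chr5:32136472-32157840) encodes Fra-2, a Fos protein without the strong activation domain of Fos. Its order over the types was different from that of *Fos*, with neutrophil-like cells first on day 1 at 552 CPM [531, 573] and fibroblast/FAP-like cells last at 86.8 CPM [82.7, 91.2]. In monocyte/macrophage-like cells it was 2.15-fold lower on day 3 (237 CPM [232, 242] against 110.3 CPM [107, 114]), and in neutrophil-like cells 2.05-fold lower (268 CPM on day 3). In fibroblast/FAP-like cells the level was 102 CPM on day 3, a log2 ratio of 0.24 [0.14, 0.33], or 0.09 after the shift of the median gene was taken off. *Fosl2* was therefore the Fos gene whose days differed in opposite directions in macrophages and FAPs. The lower values in dendritic cell-like (-0.49 on the log2 scale) and endothelial-like cells (-0.53) changed sign under 1 of 13 and 1 of 10 alternatives.

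**Figure D2:**
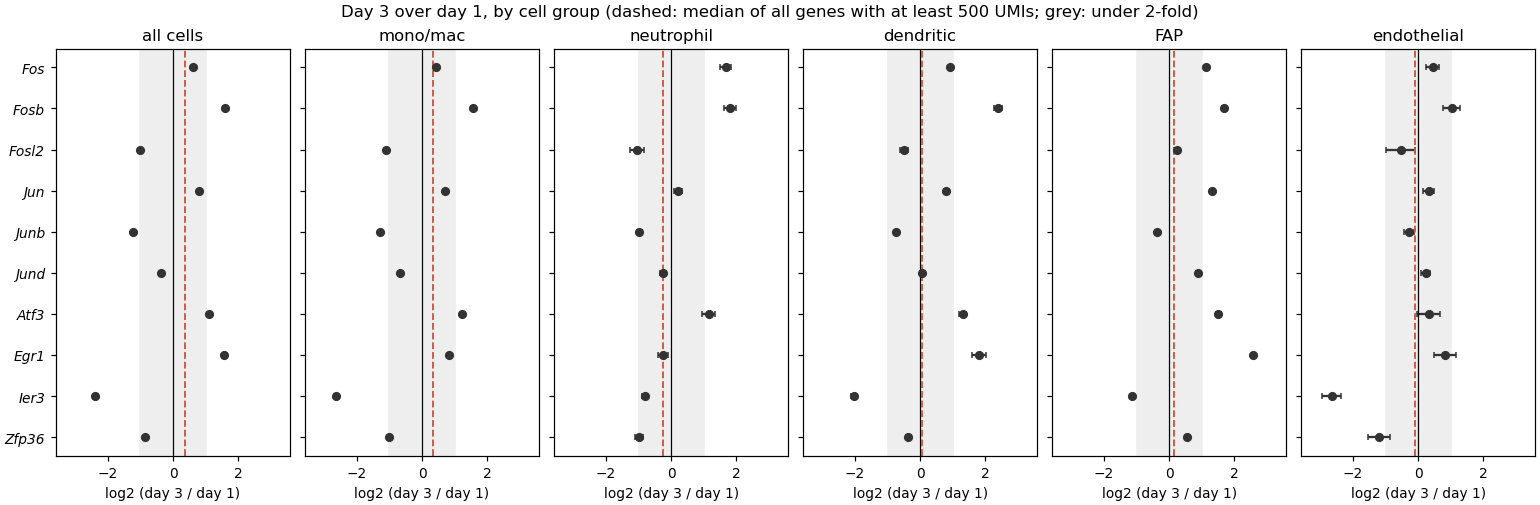
Log2 ratio of day 3 over day 1 for each gene (horizontal axis; 0.5 added to both counts), by cell group; bars are 95% intervals of the ratio of counts, the dashed line is the median of all genes with at least 500 UMIs and grey marks less than 2-fold. In monocyte/macrophage-like cells *Ier3* lay at -2.64 and *Fosb* at 1.56, while in fibroblast/FAP-like cells *Egr1* lay furthest right at 2.59.

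Of the Jun family, *Jun* (ENSMUSG00000052684, chr4:95049036-95052222), the strongest activator and able to pair with itself, was higher on day 3. Monocyte/macrophage-like cells held 420.3 CPM [414, 427] and 678 CPM [670.4, 686], and fibroblast/FAP-like cells 442 CPM [433, 452] and 1092 CPM [1078, 1105], folds of 1.61-fold and 2.47-fold. Dendritic cell-like cells had 368 and 641 CPM. Neutrophil-like (699 and 815 CPM) and endothelial-like cells (858 and 1075 CPM) differed less between the days. The neutrophil-like log2 ratio of 0.22 reached 0.98 when barcodes needed 10% of the UMIs of the 99th percentile. Satellite cell/myoblast-like cells of day 3 held 516 CPM [501, 531] of *Jun*, against 678 CPM in macrophages. *Ier3* stood at 40.1, *Zfp36* at 34.6 and *Fos* at 163 CPM in those muscle cells, where each of the 10 genes had its lowest level of day 3.

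*Junb* (ENSMUSG00000052837, chr8:84976909-84978748), which dimerises with Fos proteins and restrains *Jun*, went the other way. Its level in monocyte/macrophage-like cells was 2039.7 CPM [2025, 2054] on day 1 and 838 CPM [829.5, 847] on day 3, a 2.43-fold difference. In neutrophil-like cells it was 4299.6 CPM [4242, 4358] and 2186 CPM [2079.9, 2297], the highest of any type on both days. Their log2 ratio of -0.98 came to -0.26 with each cell named by its highest marker score. Fibroblast/FAP-like cells showed a smaller step than macrophages, from 1072 to 826 CPM, log2 ratio -0.38 [-0.40, -0.35]. Dendritic cell-like cells held 1766 and 1063 CPM. In endothelial-like cells (1433 and 1180.5 CPM) the lower value on day 3 changed sign under 1 of 10 alternatives. *Jun* and *Junb*, both partners of Fos, thus stood in opposite directions between the same 2 libraries in macrophages and FAPs.

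*Jund* (ENSMUSG00000071076, chr8:70697739-70700616), the Jun gene with steady expression in resting cells, had different directions by type. It was lower on day 3 in monocyte/macrophage-like cells (754 CPM [746, 763] against 467 CPM [461, 474], log2 ratio -0.69 [-0.72, -0.66]) and higher in fibroblast/FAP-like cells (444 CPM [435, 454] against 814 CPM [802, 825], log2 ratio 0.87 [0.84, 0.91]). Dendritic cell-like cells were nearly level at 856 and 898 CPM, and endothelial-like cells had 1248 and 1461 CPM, an order that turned under 1 of 10 alternatives (-0.26 on the log2 scale with each cell named by its highest marker score). Neutrophil-like cells held the highest level on both days, 1914 and 1617 CPM. Their log2 ratio of -0.24 came to 0.02 relative to the median gene, and it changed sign under 8 of 18 alternatives, so no direction is read from it.

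*Atf3* (ENSMUSG00000026628, chr1:191170296-191183333), a stress-induced factor that represses inflammatory genes, was 2.35-fold higher on day 3 in monocyte/macrophage-like cells (213 CPM [209, 218] against 500.4 CPM [494, 507]) and 2.85-fold higher in fibroblast/FAP-like cells (75.3 CPM [71.4, 79.3] against 214 CPM [208, 220.1]). Neutrophil-like cells had 168 and 375 CPM and dendritic cell-like cells 200.1 and 494 CPM. Macrophages and dendritic cell-like cells shared the top of the order on day 3 with overlapping intervals. In endothelial-like cells (205 and 256 CPM) the interval of the log2 ratio held 0, at 0.33 [-0.05, 0.68].

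*Egr1* (ENSMUSG00000038418), which encodes the zinc finger factor Egr1 that acts downstream of the MAP kinases, had its largest difference in FAPs. Fibroblast/FAP-like cells went from 164 CPM [159, 170.2] to 988 CPM [975, 1000.3], 6.01-fold higher. Monocyte/macrophage-like cells stayed far below, at 66.2 CPM [63.7, 68.8] and 118 CPM [115, 121], and dendritic cell-like cells at 47.3 and 166 CPM. On day 1 the highest level was that of neutrophil-like cells, 561 CPM [541, 582], and on day 3 they held 473 CPM [424, 525]. Endothelial-like cells had 207 and 367 CPM, a difference that changed sign under 1 of 10 alternatives. Neither did the neutrophil-like difference have a stable sign: its log2 ratio of -0.25 was 0.01 relative to the median gene, and 4 of 18 alternatives turned it, up to 1.90 when barcodes needed 10% of the UMIs of the 99th percentile.

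Fibroblast/FAP-like cells gave the largest share of the *Egr1* UMIs on both days, but the shares of the types differed between the days. Fibroblast/FAP-like cells gave 33.7% of the *Egr1* UMIs on day 1 and 74.6% on day 3. Neutrophil-like cells gave 30.5% and 1.06%, and monocyte/macrophage-like cells 27.9% and 15.2%. Of all UMIs, FAPs gave 26.5% and 29.0% and macrophages 54.2% and 49.5%. Neutrophil-like cells also gave a lower share of all UMIs on day 3 than on day 1. When each cell counted equally (the mean of the CPM of each cell), the log2 ratio of *Egr1* over all cells was 0.52 in place of 1.57.

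*Ier3* (ENSMUSG00000003541, chr17:35821713-35822911), a short-lived regulator of cell survival induced by NF-kB, was the gene furthest below its day 1 level over all cells. Monocyte/macrophage-like cells held 3449.8 CPM [3431, 3468] on day 1 and 553 CPM [546, 560.4] on day 3, 6.24-fold lower, and 0.930% of the 7960 genes tested in them had a lower ratio. Endothelial-like cells went from 1699 to 269.5 CPM and dendritic cell-like cells from 1921 to 466 CPM. Fibroblast/FAP-like cells had 1027 and 462 CPM, and neutrophil-like cells, the highest on both days, 4313 and 2450.3 CPM. *Ier3* was lower on day 3 in each of the 5 types, although in neutrophil-like cells the log2 ratio of -0.82 came to -0.08 with no mitochondrial limit. The dendritic value of -2.04 on the log2 scale depended on which cells were grouped there, and turned to 0.23 and 0.20 under 2 of 13 alternatives.

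*Zfp36* (ENSMUSG00000044786, chr7:28376784-28379228) was 2.03-fold lower on day 3 in monocyte/macrophage-like cells (757 CPM [748, 765] against 373 CPM [367, 379]), just past the 2-fold line. Neutrophil-like cells held 1519.9 and 773 CPM and endothelial-like cells 564 and 245 CPM. The neutrophil-like log2 ratio of -0.98 came to -0.33 when barcodes needed 10% of the UMIs of the 99th percentile. In fibroblast/FAP-like cells it was higher on day 3, 294 CPM [286, 302] against 429 CPM [420.4, 437]. The dendritic cell-like values of 602 and 468 CPM changed order under 3 of 13 alternatives.

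Taking the types in turn, 4 of the 10 genes were at least 2-fold lower on day 3 in monocyte/macrophage-like cells (*Ier3*, *Junb*, *Fosl2* and *Zfp36*; background 5.41% of 7960 genes) and 2 were higher (*Fosb* and *Atf3*; 20.5%). *Atf3* lost that call under 2 of 19 alternatives, at 0.88 with the median gene set to 0 and 0.46 with clusters named against all other cells. In fibroblast/FAP-like cells 1 was lower (*Ier3*; 8.01% of 7681 genes) and 5 higher (*Egr1*, *Fosb*, *Atf3*, *Jun* and *Fos*; 16.0%). *Ier3* in FAPs lost its call under 4 of 18 alternatives, leaving 0 lower (-0.70 with fewer than 200 genes per 1000 UMIs read as low quality). The higher count in FAPs was 4 without *Fos* under 2 alternatives, with the median gene set to 0 (0.99) and with fewer than 200 genes per 1000 UMIs read as low quality (0.79). The 10 genes had a median log2 ratio of -0.13 in macrophages, against 0.35 for all genes, and 1.00 in FAPs, against 0.14. Each of the 10 ratios in macrophages kept its sign under all 19 alternatives that gave a value and each of those in FAPs under all 18. *Zfp36* and *Fosl2* lay near the 2-fold line, and *Jund* passed it at -1.04 with the median gene set to 0. The lower count in macrophages thus ranged from 2 to 5 over the alternatives.

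In neutrophil-like cells 1 gene was lower (*Fosl2*; 21.0% of 1391 genes) and 3 were higher (*Fosb*, *Fos* and *Atf3*; 17.5%). *Fosl2* kept its 2-fold call under 5 of 18 alternatives and came to -0.17 when barcodes needed 10% of the UMIs of the 99th percentile, and *Fos* came to 0.39 when each cell took the name of its highest marker score. Dendritic cell-like cells had 1 lower (*Ier3*; 4.92% of 2762 genes) and 3 higher (*Fosb*, *Egr1* and *Atf3*; 6.12%). Endothelial-like cells had 2 lower (*Ier3* and *Zfp36*; 18.6% of 371 genes) and 1 higher (*Fosb*; 4.31%), on few cells. *Zfp36* lost its call under 3 of 10 alternatives (-0.49 with each cell named by its highest marker score) and *Fosb* under 1 (0.78). In endothelial-like cells 7 of the 10 genes had at least 500 UMIs, the 3 counted genes among them, and *Fosl2*, *Atf3* and *Egr1* did not. The median endothelial-like cell had 6663 UMIs and 2.36% mitochondrial UMIs on day 1 against 3790 and 4.49% on day 3. The part of depth and quality in these differences was not tested.

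The neutrophil-like cells comprised an *S100a9*-led cluster of 1310 and 183 cells and an *Acod1*-led cluster of 715 and 55 cells. In the former 4 genes were lower on day 3 (*Fosl2*, *Junb*, *Ier3* and *Zfp36*; 27.4% of 919 genes) and 2 higher (*Fos* and *Fosb*; 19.3%). In the *Acod1*-led cluster 7 of the 10 genes had at least 500 UMIs, of which 0 were lower (12.1% of 630 genes) and 1 higher (*Jun*; 7.78%). *Fos* held 145 and 637, *Fosb* 119 and 849 and *Atf3* 145 and 540.3 CPM there, on fewer than 500 UMIs each. *Ier3* held 3864 and 3289.9 CPM, *Junb* 4187 and 3097 CPM and *Jun* 559 and 1331 CPM. *Jun* stood at 817 and 729 CPM in the *S100a9*-led cluster, so its neutrophil value joined differences of opposite sign. Depth and quality differed between the days in both clusters. The median cell had 2013.5 UMIs and 0.213% mitochondrial UMIs on day 1 against 1596 and 1.09% on day 3 in the *S100a9*-led cluster, and 2547 and 0.320% against 1665 and 3.33% in the *Acod1*-led one. Their part in these differences was not tested.

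Between types of the same library the order also shifted with the day. On day 1 the CPM interval of monocyte/macrophage-like cells lay above that of fibroblast/FAP-like cells for 7 of the 10 genes, all but *Fosb*, *Jun* and *Egr1*, where 34.7% of 7359 genes did, and below it for those 3, where 53.7% did. On day 3 macrophages were above FAPs for 3 genes (*Fosl2*, *Atf3* and *Ier3*; 35.5% of 8781 genes) and below for 6 (44.8%), with the *Junb* intervals overlapping. *Fos*, *Jund* and *Zfp36* were thus higher in macrophages on day 1 and higher in FAPs on day 3.

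Neutrophil-like cells had the higher level of 8 of the 10 genes against macrophages on day 1. Macrophages were above for *Fos* and *Atf3* only (60.7% of 5899 genes) and below for the other 8 (25.8%). On day 3 the counts were again 2 above (26.0% of 6908 genes) and 8 below (15.6%). Depth moved with this difference, since neutrophil-like cells had a median of 2157 UMIs and macrophages 11299 on day 1. When each cell was thinned to 3000 UMIs, which kept 284 of the 2025 neutrophil-like cells, macrophages were above for 1 gene on day 1. Of the 284 cells, 227 were from the *Acod1*-led cluster of 715 and 57 from the *S100a9*-led cluster of 1310. This value therefore describes mainly the *Acod1*-led cells.

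**Figure D3:**
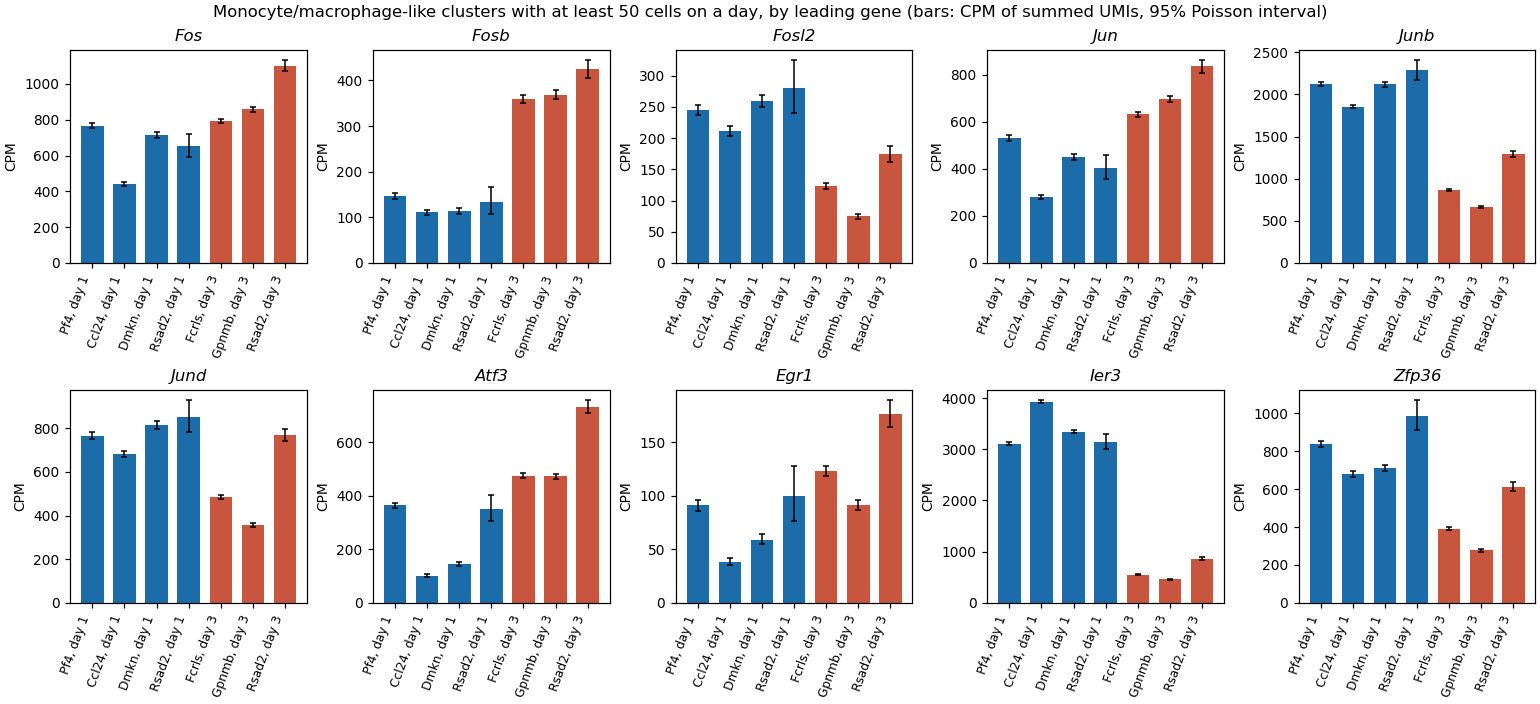
Level of each gene in CPM (vertical axis from 0, its own scale per panel) in the monocyte/macrophage-like clusters with at least 50 cells on a day, named by their leading gene; blue bars are day 1, red bars day 3, and whiskers are 95% Poisson intervals. *Ier3* was above 3000 CPM in each day 1 cluster and at 863 CPM or less in each day 3 cluster.

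The macrophage clusters of a day differed among themselves. On day 1 the *Ccl24*-led cluster had the lowest *Fos* (441 CPM), *Jun* (279) and *Atf3* (101) and the highest *Ier3* (3928), whereas the *Pf4*-led cluster had 767, 532, 364 and 3104 CPM of these genes. The *Dmkn*-led cluster was between them for *Jun* (450.04 CPM), *Atf3* (144) and *Ier3* (3346). On day 3 the *Rsad2*-led cluster, led by interferon-induced genes, had the highest level of all 10 genes, with *Fos* at 1102, *Atf3* at 732 and *Ier3* at 863 CPM. The *Gpnmb*-led cluster was lowest for 7 of the 10, among them *Fosl2* at 74.6, *Jund* at 358 and *Zfp36* at 278 CPM, against 123, 484 and 392 CPM in the *Fcrls*-led cluster. The *Gpnmb*-led cells were also the deepest, with a median of 21428 UMIs against 14136 and 9818 in the *Fcrls*- and *Rsad2*-led cells.

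The *Rsad2*-led cluster was the macrophage cluster with at least 50 cells on both days (88 and 419), and there the days could be compared within 1 cluster. Depth and quality differed there too, with a median of 3680 UMIs and 1.44% mitochondrial UMIs on day 1 against 9818 and 3.79% on day 3, and 42 of the 88 day 1 cells were under 3000 UMIs. *Ier3* was 3.65-fold lower (3150.5 and 863 CPM) and *Fosb*, *Atf3* and *Jun* at least 2-fold higher, so 1 gene was lower (6.25% of 1553 genes) and 3 were higher (8.05%). *Junb* (2285 and 1293 CPM), *Fosl2* (279.9 and 174) and *Zfp36* (989 and 612) were lower by less than 2-fold. All 10 directions were those of macrophages as a whole, and the part of depth in them was not tested. In the unnamed *Ifitm6*-led cluster, which expresses the monocyte gene *Ly6c2*, *Fosb*, *Atf3* and *Egr1* were at least 2-fold higher on day 3 (3 genes; 1.65% of 1519 genes) and 0 were lower by that fold (4.15%). *Ier3* held 2336 and 1317 CPM there.

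The share of cells with a UMI was compared at equal depth, with each cell thinned to 3000 UMIs and 136 of 3274 and 52 of 2497 shallower macrophages left out. In monocyte/macrophage-like cells 5 genes had a lower share on day 3 with intervals that did not overlap (14.9% of genes) and 5 a higher one (47.5%). *Ier3* was detected in 97.9% of thinned cells on day 1 and 63.0% on day 3, and *Junb* in 97.9% and 79.7%. *Atf3* went from 27.5% to 62.7% and *Fosb* from 28.3% to 55.5%. Without thinning *Ier3* was at 99.6% and 87.8%, *Junb* at 99.5% and 96.4%, *Atf3* at 46.9% and 88.3% and *Fosb* at 61.5% and 84.5%. The 5 lower genes were the 5 whose CPM was lower. At a fixed depth the share of cells with a UMI depends largely on the mean level, so this is not a separate result.

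In fibroblast/FAP-like cells the thinned share with *Egr1* went from 32.6% to 83.1% (unthinned 73.8% and 94.5%), *Jund* from 62.8% to 85.5% and *Jun* from 58.6% to 86.5%. Neutrophil-like cells were too shallow for 3000 UMIs and were thinned to 1000 UMIs, where *Fos* was detected in 11.6% of them on day 1 and 23.5% on day 3, *Ier3* in 88.7% and 76.1% and *Egr1* in 33.0% and 34.5%. The *Egr1* shares went against its CPM and give no direction.

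No cell type is known to lack these genes, so free RNA in the suspension was measured in barcodes with at most 100 UMIs. It held *Ier3* at 2613 CPM on day 1 and 419 on day 3, *Fosb* at 119.8 and 339.7 CPM and *Egr1* at 112 and 392 CPM, following the cells of each library. The markers of other types allowed at most 2.07% and 0.248% of the UMIs of monocyte/macrophage-like cells and 7.03% and 0.208% of those of fibroblast/FAP-like cells to come from free RNA. At that bound it could give 1.57% of the *Ier3* UMIs of macrophages on day 1, and 17.9% of the *Ier3* and 18.1% of the *Fosl2* UMIs of FAPs on day 1. The bound was widest in endothelial-like cells of day 3, at 11.7% of their UMIs, or 18.2% of their *Ier3* and 16.2% of their *Zfp36* UMIs. In neutrophil-like cells it was 2.73% and 2.52%, or 6.90% of the *Fos* UMIs on day 1 and 2.60% on day 3. With it taken off, *Ier3* in FAPs kept its sign but no longer passed 2-fold.

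The number of the 10 genes seen in a single cell was also counted. No such count is given for other genes, so joint expression is not read from it. A macrophage thinned to 3000 UMIs showed a median of 6 of the 10 genes on both days, but 25 UMIs of them on day 1 and 14 on day 3. A fibroblast/FAP-like cell showed 5 genes and 11 UMIs on day 1 and 7 genes and 18 UMIs on day 3. Neutrophil-like cells deep enough on day 1, mostly from the *Acod1*-led cluster, showed 7 genes and 40.5 UMIs. Satellite cell/myoblast-like cells of day 3 showed 2 genes and 3.5 UMIs.

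**Figure D4:**
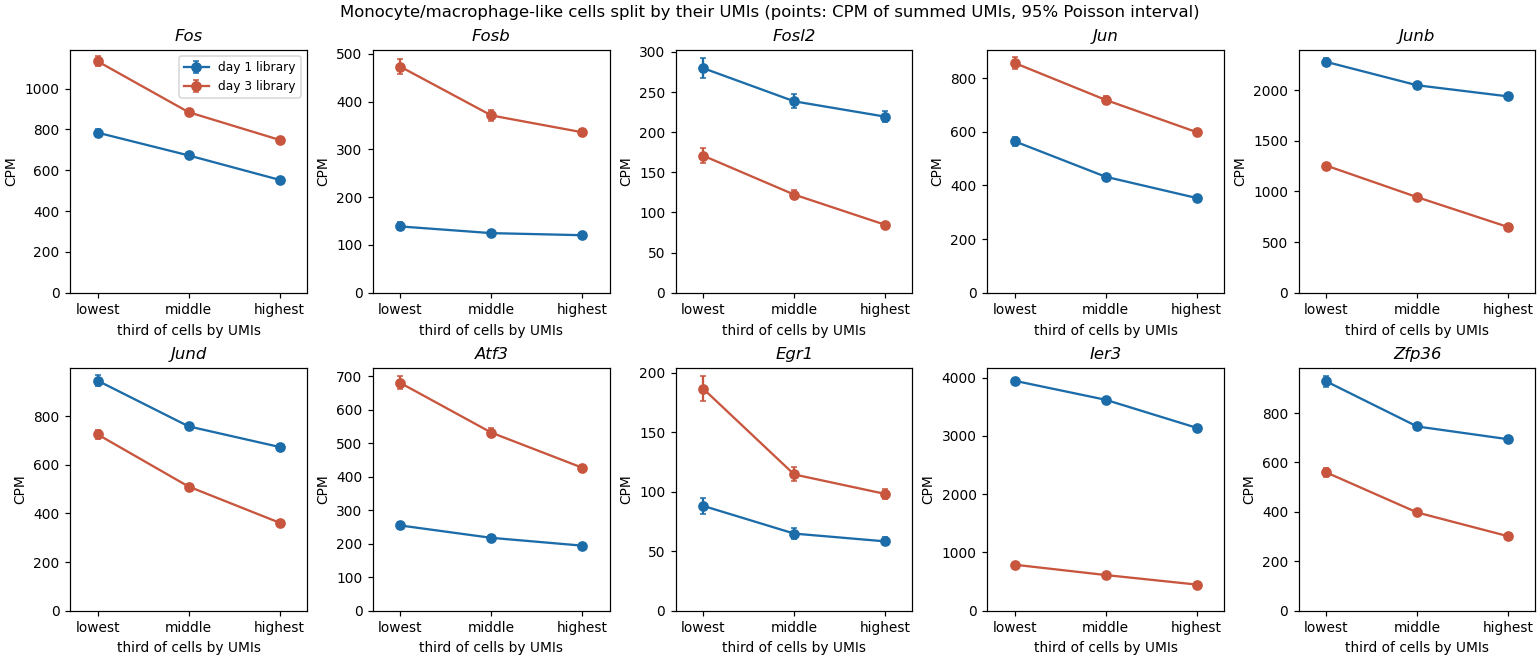
Level of each gene in CPM (vertical axis from 0) in monocyte/macrophage-like cells split into 3 equal parts by UMIs per cell (lowest, middle and highest), for the day 1 (blue) and day 3 (red) libraries; bars are 95% Poisson intervals. Each line falls to the right, and the blue and red lines keep their order in each part.

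Depth and quality moved with the levels inside a type. Monocyte/macrophage-like cells were split into 3 equal parts by UMIs per cell, and the part with the most had a CPM interval below that of the part with the fewest for 10 of the 10 genes on day 1, where 22.8% of 5596 genes did, and above it for 0 (24.3%). On day 3 the counts were 10 below (28.3% of 6845 genes) and 0 above (28.4%). *Zfp36* held 928, 746 and 694 CPM from the lowest to the highest part on day 1 and 559.7, 397 and 301 CPM on day 3, and *Ier3* 3944, 3618 and 3137 CPM and 788, 611 and 447 CPM. The direction between the days was the same in each part for each of the 10 genes. In FAPs the highest part was below for 6 genes (17.0% of 4533 genes) and above for 4 (18.5%) on day 1, and below for 8 (19.8% of 5942 genes) and above for 1 (26.4%) on day 3.

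By mitochondrial share, macrophages of the highest of 3 equal parts were below the lowest for 5 genes (9.58%) and above for 0 (15.1%) on day 1, and below for 5 (10.3%) and above for 3 (15.6%) on day 3. FAPs reversed between the days. Their highest mitochondrial part was above the lowest for 10 of the 10 genes on day 1 (14.0%; below for 0, 19.4%) and below for 9 on day 3 (11.2%; above for 0, 5.54%). The barcodes that only the mitochondrial limit removed, 277 on day 1 and 1804 on day 3, held *Ier3* at 2555 and 450.5 CPM, *Junb* at 1944 and 709.9, *Fosb* at 165 and 354, and *Egr1* at 293 and 398 CPM. The part of depth and of cell quality in the differences between the days was not tested.

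Over 11 groups (each type on each day where it had at least 50 cells) the log2 levels of some genes went closely together. *Fosl2*, *Junb*, *Ier3* and *Zfp36* were alike, with Pearson's r of 0.98 for *Fosl2* and *Junb*, 0.95 for *Junb* and *Zfp36*, 0.94 for *Zfp36* and *Fosl2* and 0.94 for *Ier3* and *Junb*. *Jund* was at 0.88 with *Fosl2*, 0.82 with *Junb* and 0.77 with *Zfp36*. *Jun* was at 0.84 with *Egr1* and 0.82 with *Fosb*, while *Egr1* and *Fosb* were at 0.61 and *Fos* and *Atf3* at 0.74, so the genes did not divide into separate sets. The lowest value was -0.23 for *Ier3* and *Fosb*. The groups share libraries, depth and cell mixture, so r is a description. Among 10378 other genes the 3 nearest in pattern were *Zc3h12a*, *Ndel1* and *Tnfaip3* to *Fosl2*, *Csrnp1*, *Zc3h12a* and *Icam1* to *Junb*, *Arrdc4*, *Cebpb* and *Stk40* to *Ier3* and *Myd88*, *Selenok* and *Ostf1* to *Zfp36*, with r from 0.95 to 0.98. They were *Ifi203*, *Ech1* and *Parp12* for *Fos*, *Cep350*, *Gm26802* and *Acbd5* for *Fosb*, *Hook3*, *Aff4* and *Pcmtd1* for *Jun*, *Kmt2e*, *Nfat5* and *Btg2* for *Jund*, *Smpdl3a*, *Rnf13* and *Lipa* for *Atf3* and *Pdlim2*, *Tmem167b* and *Creb5* for *Egr1*, with r from 0.91 to 0.98. Over single thinned cells the highest r was 0.33 in macrophages (*Jun* and *Atf3*, day 1), 0.42 in FAPs (*Fos* and *Egr1*, day 3), 0.38 in neutrophil-like cells (*Junb* and *Zfp36*, day 1) and 0.38 in dendritic cell-like cells (*Fos* and *Fosb*, day 3), weak values in sparse counts from which nothing is read.

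**Figure D5:**
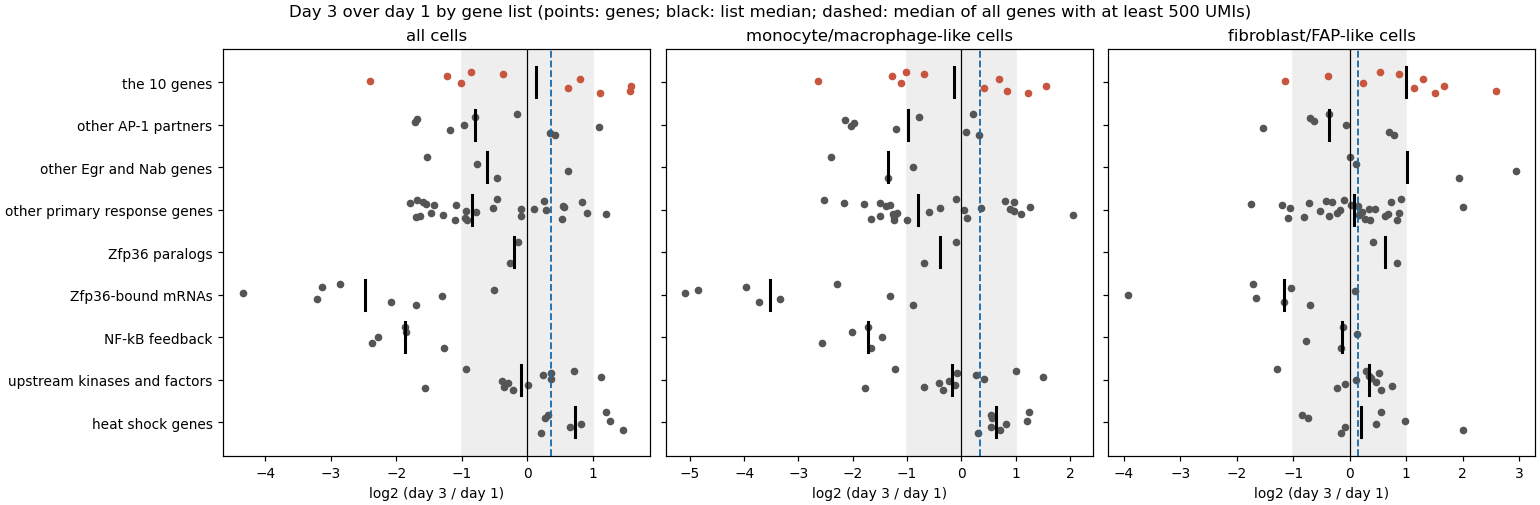
Log2 ratio of day 3 over day 1 (horizontal axis) for the 10 genes (red) and the genes of 8 other lists with at least 500 UMIs (grey points), in all cells, monocyte/macrophage-like and fibroblast/FAP-like cells; black ticks are list medians, the dashed line the median of all genes, and shading less than 2-fold. The lists of Zfp36-bound mRNAs and NF-kB feedback genes lie to the left of 0 in macrophages, with medians of -3.53 and -1.72.

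Lists of related genes gave the wider pathway over all cells, counting genes with at least 500 UMIs, of which 4.70% were at least 2-fold lower and 20.9% higher (median 0.36). Of 9 other partners in AP-1 dimers, 3 were at least 2-fold lower and 1 higher on day 3 (median -0.79), from *Jdp2*, the repressive partner and the most abundant of the list (296 and 89.9 CPM), to *Batf3* (3.37 and 7.25 CPM). Of 4 other Egr genes and their Nab corepressors 1 was lower and 0 higher (median -0.61), with *Nab2* lowest (67.5 and 23.3 CPM), *Egr3* highest (12.9 and 19.9 CPM) and *Nab1* the most abundant (101 and 59.6 CPM). In fibroblast/FAP-like cells *Egr3* stood at a log2 ratio of 2.95, in the same direction as *Egr1* there, and 2 of 4 genes of this list were at least 2-fold higher (16.0% of all genes). In macrophages 4 of 8 AP-1 partners and 2 of 3 Egr and Nab genes were lower and 0 higher, with medians of -0.99 and -1.35, where 5.41% of all genes were lower and 20.5% higher (median 0.35).

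Of 28 other primary response genes 11 were lower and 1 higher (median -0.85), against 4.70% and 20.9% of all genes. The orphan receptor gene *Nr4a3* was lowest (108 and 31.4 CPM), the ERK phosphatase gene *Dusp6* highest (17.5 and 40.1 CPM) and the antiproliferative *Btg1* the most abundant (1209 and 560.2 CPM). In macrophages 12 of 26 were lower and 3 higher (median -0.80), against 5.41% and 20.5% of all genes. In FAPs 4 of 28 were lower and 1 higher (median 0.08), against 8.01% and 16.0%. The list thus had its centre below 0 in macrophages and near 0 in FAPs, where the 10 genes had theirs at -0.13 and 1.00.

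Of 8 mRNAs known to be bound by Zfp36, 7 were at least 2-fold lower and 0 higher (median -2.48), against 4.70% and 20.9% of all genes. *Il1b* was lowest (6596 and 324 CPM), *Il6* highest (51.2 and 35.8 CPM) and the neutrophil chemokine gene *Cxcl2* the most abundant (19530.3 and 2111 CPM). Neither *Zfp36* paralog passed 2-fold (*Zfp36l1* -0.27 and *Zfp36l2* -0.14 on the log2 scale). All 5 NF-kB feedback genes were at least 2-fold lower (median -1.87), from *Nfkbia*, which encodes the inhibitor I-kappa-B-alpha (4476 and 865 CPM), to *Bcl3* (75.6 and 31.3 CPM). In macrophages 7 of 8 bound mRNAs and all 5 feedback genes were lower (5.41% of all genes). In neutrophil-like cells 2 of 6 bound mRNAs (median -0.62) and all 5 feedback genes were lower (21.0% of all genes). The bound mRNAs summed to 91551 and 55950 CPM there. In the *Acod1*-led neutrophil cluster 0 of 6 bound mRNAs (median 0.12) and 1 of 5 feedback genes were lower (12.1% of all genes). In FAPs 5 of 7 bound mRNAs were lower (median -1.16; 8.01% of all genes), and of the feedback genes 0 of 4 passed 2-fold in either direction. Of 12 upstream kinases and factors 1 was lower (*Crem*, -1.56) and 1 higher (*Mapk14*, 1.12), with *Mapk3* the most abundant (76.6 and 90.1 CPM) and a median of -0.10.

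Heat shock genes, known like the immediate early genes to respond to tissue dissociation, were counted beside them. Of 8, 0 were at least 2-fold lower and 3 higher over all cells (median 0.73, against 20.9% of all genes higher and a median of 0.36), from *Dnaja1* (0.20 on the log2 scale) to *Dnajb1* (1.47), with *Hspa8* the most abundant (2184 and 2625 CPM). In macrophages 2 of 8 were higher (median 0.63), near the 20.5% of all genes there. Their summed level was 4804 CPM on day 1 and 7021 CPM on day 3, 3981 and 6297 CPM in macrophages, and 7179 and 6440.2 CPM in FAPs, where the 10 genes summed to 4228 and 6447 CPM. In FAPs *Dnajb1* was at 2.01 and 1 of 8 was at least 2-fold higher (median 0.19; 16.0% of all genes). The sum of the 10 genes was 8699.6 and 4862 CPM in macrophages. In dendritic cell-like cells the heat shock sum was 4987 and 10279 CPM, 4 of 8 were at least 2-fold higher (median 1.31; 6.12% of all genes) and the 10 genes summed to 6647 and 6014 CPM, although their median log2 ratio was 0.43. In neutrophil-like cells the sums were 1615 and 3838 CPM for heat shock genes and 14368 and 10091 CPM for the 10 genes. The part of dissociation in these differences was not tested, as no sample without digestion was analysed here.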

How the data were processed

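Single-cell RNA-seq counts of 2 libraries, 1 per day, were used. The authors' deposited matrices hold whole-number counts of UMIs per gene and barcode, made with Cell Ranger 5.0.0 on mm10 per the submitters' processing notes, while the file header names Cell Ranger 4; nothing was normalized before deposit.

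The 10 genes, the other lists and the tests were chosen with earlier results of these data known. Clusters were built in R 4.3.3 with Seurat 5.3.0 and sctransform 0.4.2 (3000 variable features without any listed gene, 10 PCs, resolution 0.8) and named from fixed markers, at least 3 of them raised. There were 2 naming rules. The first, each cluster against all other cells, left 2926 of 6735 day 1 cells (43.4%) unnamed and 17 FAP-like cells on day 1. The second, against clusters of other types, was kept after that outcome but before the levels of the 10 genes were computed. Levels, intervals and thinning were computed with SciPy 1.17.1, pandas 2.3.3 and NumPy 2.4.6 under Python 3.11.15, and figures drawn with matplotlib 3.10.9. A ratio of CPM had 0.5 added to both counts, and the shares of all genes and the counts of the other lists took genes with at least 500 UMIs over both days, while the 10 genes were all counted unless stated. Patterns used Pearson's r of log2(CPM + 1). The scripts were tested on simulated data.

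Each of the 10 genes was named, and of every other list the highest, lowest and most abundant gene over all cells, and the 3 genes nearest in pattern to each of the 10. The counting bound in the free RNA estimate was added after its first values and the levels were seen. Thinning to 1000 UMIs for neutrophils, ratios within clusters, the shares of genes with separate intervals and the promoters shown were also chosen after values were seen. Doublets were kept, since Scrublet (Scanpy 1.11.5) with its automatic threshold marked 2 cells on day 1 (0.0297%) and 0 on day 3 and so had not worked. An alternative removed the 363 and 171 highest-scoring cells.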

Additional observations from a re-analysis of the deposited data

Results flagged for a closer look

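For 4 genes the counts of each day lay in opposite directions in a pair of cell types, and with 1 library per day none of these differences was tested. *Fosl2* had a log2 ratio of day 3 over day 1 of 0.24 in fibroblast/FAP-like and -1.10 in monocyte/macrophage-like cells, 1.34 apart. *Jund* had 0.87 and -0.69 in the same types, 1.56 apart. *Egr1* had 2.59 in fibroblast/FAP-like and -0.25 in neutrophil-like cells, 2.83 apart, of which the neutrophil value turned to 0.01 relative to the median gene and to 1.90, the direction of FAPs, when barcodes needed 10% of the UMIs of the 99th percentile. *Zfp36* had 0.54 in fibroblast/FAP-like and -1.20 in endothelial-like cells, 1.74 apart, the latter on 95 and 61 cells.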

How the results depend on the processing

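No paired analysis was possible because each day had 1 library and no test was run. The 10 log2 ratios kept their sign under all 11 alternatives over all cells, all 19 in macrophages and all 18 in FAPs. The count of genes at least 2-fold lower in macrophages was 2 in place of 4 with a mitochondrial limit of 15%, with fewer than 200 genes per 1000 UMIs read as low quality, with the highest Scrublet scores left out, with the mean CPM of each cell, with cells thinned to 3000 UMIs, at resolution 0.4 and with the listed genes kept for clustering. The count higher in macrophages was 1 in place of 2 with the median gene set to 0 and, chosen after seeing the data, with clusters named against all other cells. In FAPs the count lower was 0 in place of 1 with the genes per 1000 UMIs reading, without the highest Scrublet scores, and with free RNA taken off, also without its counting bound (chosen after seeing the data). Macrophages were above neutrophil-like cells on day 1 for 4 genes when barcodes needed 10% of the UMIs of the 99th percentile and for 1 gene at 3000 UMIs, in place of 2. *Ier3* in dendritic cell-like cells turned from -2.04 to 0.23 with that call of barcodes and to 0.20 at resolution 1.2. The causes were not tested. Of the other values of single genes 462 stayed within their counting interval and 426 moved beyond it. FAPs could not be compared with clusters named against all other cells, which left 17 of them on day 1. With no minimum above 1 UMI, 9.38% of genes over all cells were lower and 36.3% higher. Few cells limit the endothelial-like values, and shallow cells the neutrophil-like shares.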
